A study of Mus musculus with 9 samples.

Results

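Acute-phase proteins and IL-6 signaling were described in the liver through 35 genes, chosen by name: 21 secreted proteins, 5 receptors, 6 transcription factors and signal regulators, and 3 genes of metal handling. All 35 were listed above 0 in at least 1 liver, out of 23183 gene symbols in the RNA-seq tables. The animals were male C57BL/6J mice, an inbred strain that gains weight on fatty food, at postnatal day 100. ND mice ate a normal diet with 14% fat and HFD mice a diet with 60% fat, each for 10 weeks. PRF 50 mice ate the same HFD and received by mouth, in the last 5 weeks, 50 mg/kg per day of PRF, a polymethoxyflavone-rich fraction of the leaf of Jinkyool (Citrus sunki). Poly(A) RNA was sequenced with 1 library per mouse, from ND mice 6, 7 and 9, HFD mice 1, 2 and 3, and PRF 50 mice 3, 9 and 10. The numbers name animals within a group and pair none between groups. The treatments were given in carboxymethyl cellulose, the sources used here do not say whether the ND and HFD mice received it, and the mice were fasted before the livers were taken.

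When tissue is injured or infected, IL-6 binds its receptor Il6ra on hepatocytes together with the shared signaling chain gp130 (Il6st), and JAK kinases then activate the transcription factor STAT3. IL-1 acts beside it through NF-kB, and C/EBP factors bind many of the same promoters, so that hepatocytes secrete serum amyloid A, haptoglobin, orosomucoid and other acute-phase proteins. Socs3, itself a STAT3 target, switches the receptor off again.

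Each value below is a level in 1 liver on the log2(FPKM + 1) scale, where FPKM counts the fragments of a transcript after division by its length and by the size of the library. Values are listed in the order ND mice 6, 7 and 9, HFD mice 1, 2 and 3, and PRF 50 mice 3, 9 and 10. The tables hold no read counts. Depth was therefore estimated only relative to HFD mouse 1, from the most common ratio between low values. It lay between 0.962 in PRF 50 mouse 10 and 1.59 in HFD mouse 3, but only 4.82% to 13.6% of the low genes had the most common ratio, so these are rough values. A gene was tested where the 6 mice compared averaged 1 FPKM or more, so 1 of the 2 groups can lie below it. Of the 35 members, 34 passed this minimum in each comparison, and Osmr, the oncostatin M receptor chain, did not.

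Hepatocyte RNA was looked at through 10 marker genes. Apoa1, an apolipoprotein of hepatocytes and the most abundant of them, lay between 12.69 and 13.50 in the 9 livers. Alb, which encodes albumin, was listed at 0 in all 9 livers, so a listed 0 was not read as absence. No other gene of the 10 was listed at 0, and their summed level was 19059 to 27089 FPKM in ND, 17313 to 25055 in HFD and 21911 to 24292 in PRF 50 livers. Fgb and Serpina1a also stand among the positive acute-phase genes below, and Alb, Ttr and Apoa1 among the negative ones. This sum is therefore not independent of the genes described here.

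PRF 50 mouse 10 stood apart from the other PRF 50 livers in these genes. It was the lowest of the 3 PRF 50 livers for all 21 secreted members and for 30 of the 34 members above the minimum, against 34.1% of the 10048 genes that averaged 1 FPKM or more in the 9 livers. PRF 50 mouse 3 lay above all 6 ND and HFD livers for 27 members, mouse 9 for 22 and mouse 10 for 0. Over all genes the same shares were 14.7%, 14.6% and 13.7%, so mouse 10 did not stand apart in this respect over the transcriptome. Over the secreted members, the median distance from the ND mean was 1.77 in mouse 3, 1.26 in mouse 9 and -0.03 in mouse 10 on the log2 scale. The rough estimates of relative depth were 0.980, 1.51 and 0.962 in mice 3, 9 and 10, from ratios held by 6.76%, 4.82% and 11.3% of the low genes. The results that rest on this liver are given with and without it.

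**Figure D1:**
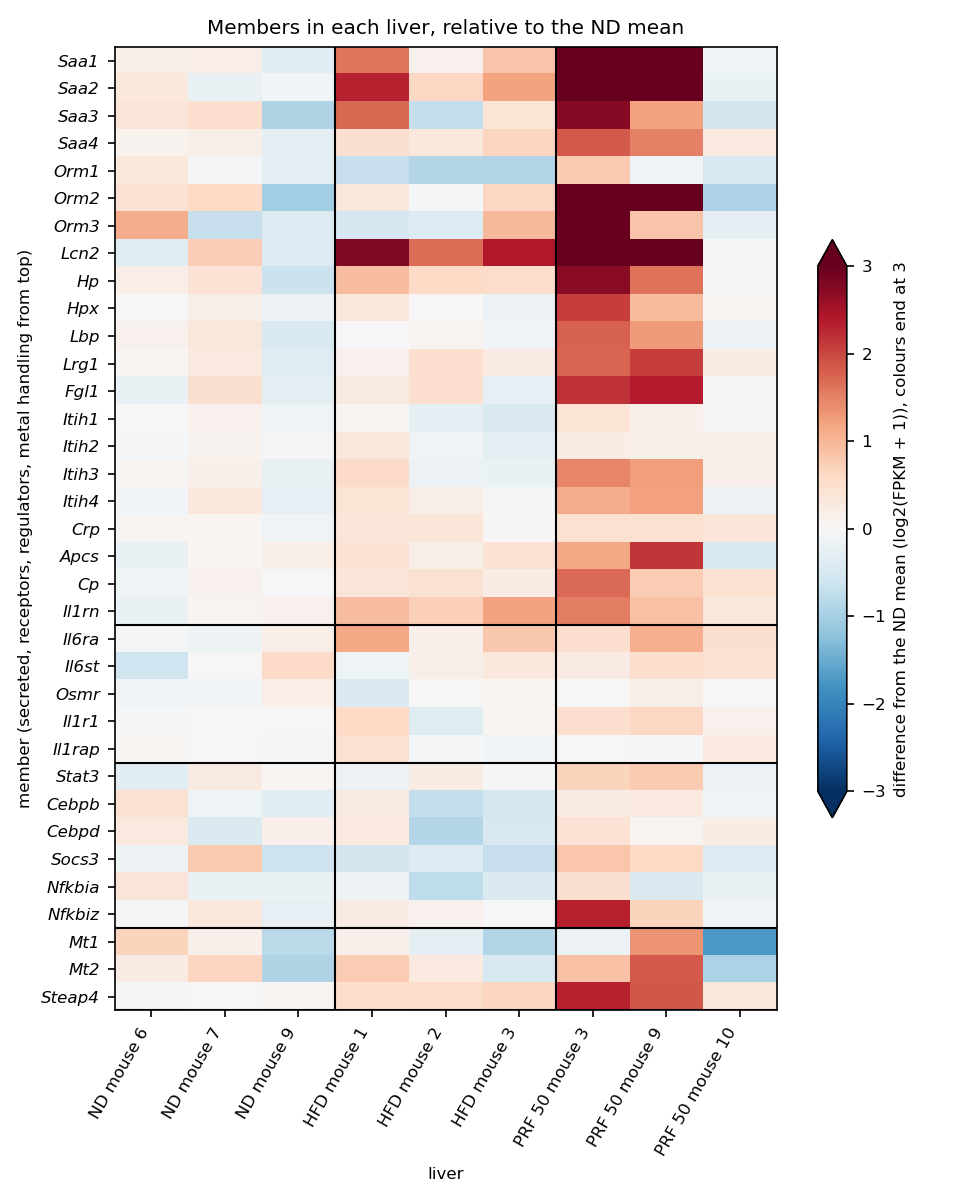
Difference of each of the 35 members (rows, in the order secreted, receptors, regulators, metal handling) from its ND mean, on the log2(FPKM + 1) scale, in each of the 9 livers (columns). Red is above and blue below the ND mean, colours end at a difference of 3, and PRF 50 mice 3 and 9 are red over most secreted members while mouse 10 is not.

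Promoters of 6 members are shown because these genes were high together in single livers and differ in the motifs they carry. RefSeq promoter windows of 300 bases (250 before the start and 50 from it, build GRCm38.p6) were found for 29 of the 35 members, in 33 windows. Hp, Orm1, Fgl1, Nfkbiz, Lbp and Cebpd had no entry. Each window was searched on both strands for the STAT motif TTCNNNGAA, the C/EBP motif TTGCNNAA and the kappaB motif GGGANTTTC, and no matches of different motifs overlapped in the windows printed. The windows are written on the strand of the gene with the matches in capitals. Saa1 (chr7:46742931-46743230, minus strand), Saa2 (chr7:46751583-46751882, plus strand), Orm2 (chr4:63362199-63362498, plus strand) and Lcn2 (chr2:32387690-32387989, minus strand) carry C/EBP matches. Socs3 (chr11:117969317-117969616, minus strand) carries a STAT match, and Steap4 (chr5:7960222-7960521, plus strand) a STAT match followed by a C/EBP match.
Saa1: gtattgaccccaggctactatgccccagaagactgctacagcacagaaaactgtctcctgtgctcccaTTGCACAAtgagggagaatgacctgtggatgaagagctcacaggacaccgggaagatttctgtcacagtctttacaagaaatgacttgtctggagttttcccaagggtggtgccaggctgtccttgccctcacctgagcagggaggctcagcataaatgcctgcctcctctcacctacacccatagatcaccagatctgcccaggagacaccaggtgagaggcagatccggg
Saa2: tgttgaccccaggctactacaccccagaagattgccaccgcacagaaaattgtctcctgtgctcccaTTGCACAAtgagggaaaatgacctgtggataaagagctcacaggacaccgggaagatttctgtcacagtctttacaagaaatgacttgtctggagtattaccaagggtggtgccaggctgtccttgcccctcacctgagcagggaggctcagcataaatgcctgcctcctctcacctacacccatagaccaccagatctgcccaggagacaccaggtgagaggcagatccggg
Orm2: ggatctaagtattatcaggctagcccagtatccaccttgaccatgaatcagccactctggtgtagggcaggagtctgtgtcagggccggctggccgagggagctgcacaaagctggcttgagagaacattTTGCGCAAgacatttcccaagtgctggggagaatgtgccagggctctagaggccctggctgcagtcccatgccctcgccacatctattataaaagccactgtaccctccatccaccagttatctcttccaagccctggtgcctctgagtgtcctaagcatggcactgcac
Lcn2: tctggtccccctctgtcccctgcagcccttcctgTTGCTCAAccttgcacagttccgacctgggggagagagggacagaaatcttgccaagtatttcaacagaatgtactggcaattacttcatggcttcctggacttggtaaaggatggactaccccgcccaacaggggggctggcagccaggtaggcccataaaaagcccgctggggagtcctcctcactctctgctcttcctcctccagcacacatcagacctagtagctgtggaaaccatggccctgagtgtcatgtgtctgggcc
Socs3: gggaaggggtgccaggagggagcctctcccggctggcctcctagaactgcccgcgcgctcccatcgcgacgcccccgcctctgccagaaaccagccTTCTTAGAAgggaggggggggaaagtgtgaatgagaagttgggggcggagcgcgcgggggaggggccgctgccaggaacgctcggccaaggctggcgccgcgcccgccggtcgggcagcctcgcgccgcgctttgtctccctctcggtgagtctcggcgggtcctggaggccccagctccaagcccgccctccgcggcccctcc
Steap4: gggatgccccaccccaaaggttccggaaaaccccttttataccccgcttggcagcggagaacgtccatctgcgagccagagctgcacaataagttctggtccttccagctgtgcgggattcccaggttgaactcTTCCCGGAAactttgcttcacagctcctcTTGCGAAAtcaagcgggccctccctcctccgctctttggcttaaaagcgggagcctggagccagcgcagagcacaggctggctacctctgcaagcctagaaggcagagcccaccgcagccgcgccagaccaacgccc

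The C/EBP motif was found in 10 of the 17 secreted members with a window (58.8%) and in 12.2% of all 27025 genes with a window; by window it was 10 of 20 against 10.8% of all 32851. In Saa1 and Saa2 the match began 182 and 183 bases before the start with the same letters, TTGCACAA. The match in Orm2, TTGCGCAA, reads the same on both strands. The STAT motif was found in 4 of the 29 members, namely Itih4, Apcs, Socs3 and Steap4 (13.8%, against 9.55% of all genes with a window). The kappaB motif was found only in Nfkbia among the members, with 2 matches, against 1.29% of all genes with a window. A match is a run of letters and not a measured binding site, and a window without a match says only that these letters are not in it.

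The 3 comparisons share mice: PRF 50 vs. HFD and HFD vs. ND use the same HFD livers, and PRF 50 vs. ND shares livers with both, so their values stand side by side and are not independent. In PRF 50 vs. HFD no member passed the adjusted test. Of the 21 secreted members, 20 were higher in PRF 50 mouse 3 than in all 6 ND and HFD livers, 16 in mouse 9 and 0 in mouse 10, with the largest differences in Saa1, Saa2, Orm2 and Lcn2. Without mouse 10, 11 members passed, but this liver was singled out for being low in these same genes, so the smaller p values follow in part from the choice and are given as a description. In HFD vs. ND, Lcn2, Il1rn and Steap4 were higher in HFD livers by the adjusted test, and none of the 3 passed it with no minimum level; Il1rn reached the minimum only through the HFD livers. In PRF 50 vs. HFD and PRF 50 vs. ND the receptors and transcription factors differed less than the secreted proteins by their medians. The log2(FPKM + 1) scale shrinks differences at low levels. Nfkbiz, Socs3 and Cebpd had HFD means of only 1.34, 1.87 and 2.72 FPKM, and the part of the scale in this contrast was not tested.

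In PRF 50 vs. HFD, 0 of 34 members passed an adjusted p under 0.05 in limma, against 3.59% of the 10084 genes tested. An unadjusted limma p under 0.05 was reached by 5 members, Orm1, Lrg1, Itih1, Itih3 and Socs3, against 20.2% of all genes. An unadjusted p under 0.05 together with a fold change above 2 was met by 1 member, Lrg1, against 2.1% of all genes. The fold here is a difference of mean log2 values. With the fold as a ratio of the group means of FPKM + 1, all 10 members of the study's own list were above 2 (6 with the log2 means), but only Lrg1 also had a limma p under 0.05. The members had a median log2 fold change of 0.64, with 31 higher and 3 lower, and all genes tested a median of -0.02. Over the secreted members the median was 0.88, over the receptors 0.14 and over the transcription factors and regulators 0.53. Without PRF 50 mouse 10 the median rose to 1.47 over the secreted members and to between 1.17 and 1.20 over all members. All 3 PRF 50 livers lay above all 3 HFD livers for 1 member, Orm1, and below them for 0, against 10.9% and 15.3% of all genes. These shares lie below those of all genes, so the pattern of the members was one of single livers and not of separated groups.

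Without PRF 50 mouse 10, limma placed 11 of 34 members past an adjusted p under 0.05, against 1.67% of the 10060 genes tested. At an unadjusted p under 0.05 with a fold above 2 there were 18 members, against 2.51% of all genes. Of the 11, 8 stand in the study's own list of differentially expressed genes, which was chosen on these livers. In all, 10 members stand in that list (Saa1, Saa2, Orm2, Lcn2, Hp, Hpx, Lbp, Lrg1, Fgl1 and Steap4), so their differences are not independent evidence of its direction. The other 3 of the 11 were Saa4, Itih4 and Socs3. Leaving out HFD mouse 2, HFD mouse 3, PRF 50 mouse 3 or PRF 50 mouse 9 in place of mouse 10 left 0 members past p and fold, and the adjusted count stayed at 0. Leaving out HFD mouse 1 raised the members whose groups do not overlap from 1 to 10, against 38.7% of all genes in the same fit (26.2% with all mice).

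**Figure D2:**
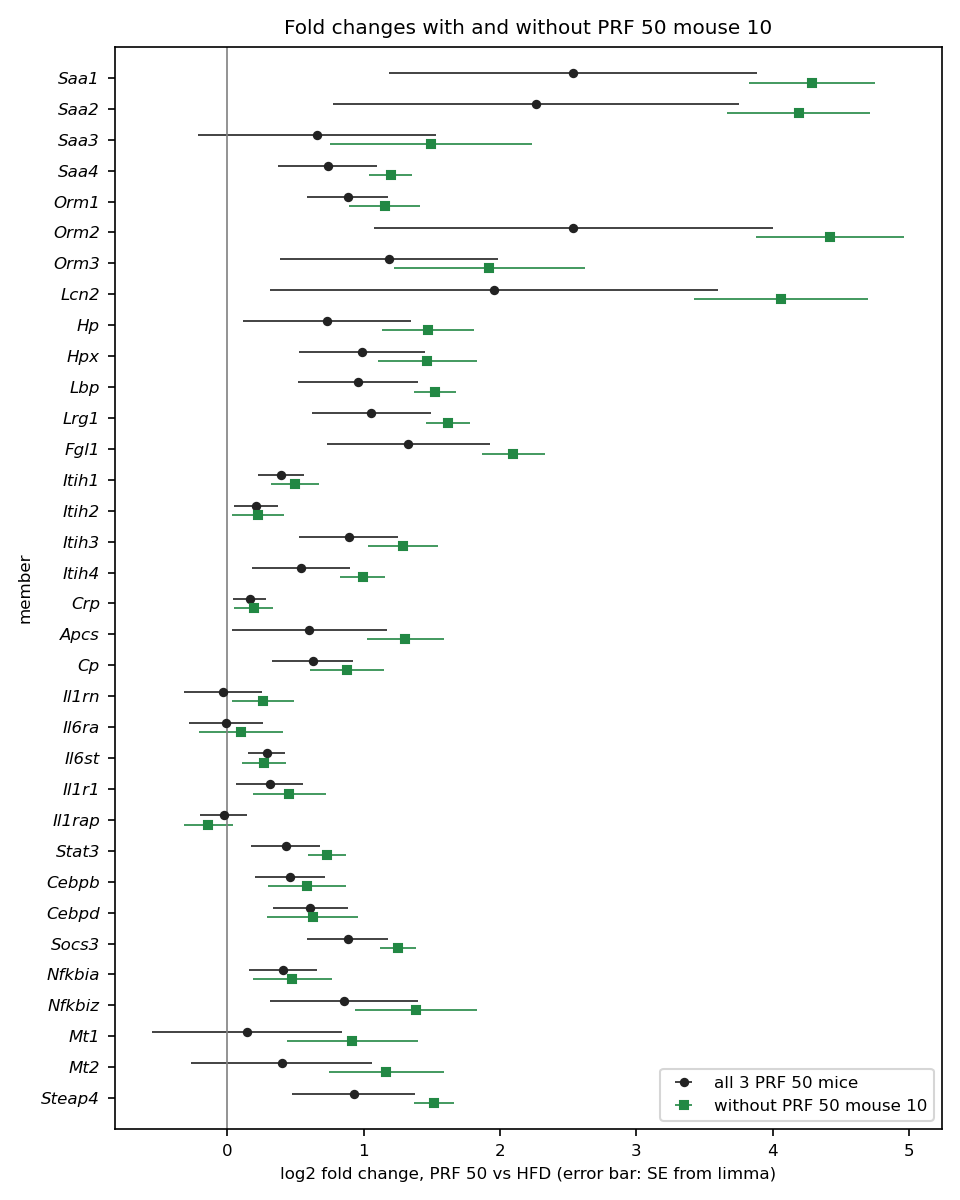
Log2 fold change of the 34 tested members in PRF 50 vs. HFD with all 3 PRF 50 mice (black circles) and without PRF 50 mouse 10 (green squares). Bars are standard errors from limma, and for Saa1, Saa2, Orm2 and Lcn2 the error bars are much shorter without mouse 10.

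In HFD vs. ND, limma placed 3 of 34 members past an adjusted p under 0.05, all higher in HFD, against 1.33% of the 9978 genes tested. An unadjusted p under 0.05 with a fold above 2 was met by 2 members, Lcn2 and Saa2, against 1.34% of all genes. The HFD livers lay wholly above the ND livers for 8 members and wholly below for 1, Orm1, where all genes gave 10.7% and 10%. The median log2 fold change was 0.15 over the members, 0.29 over the secreted proteins and -0.01 over all genes. Over the receptors it was 0.11, and over the transcription factors and regulators -0.34, larger in size than that of the secreted proteins and of opposite sign. The adjusted calls rest on few mice: 0 members passed without HFD mouse 1, HFD mouse 3, ND mouse 6 or ND mouse 9, and 1, Lcn2, passed without HFD mouse 2 or ND mouse 7. Without HFD mouse 1 the p and fold count was 1, without HFD mouse 2 it was 4, and 15 members did not overlap without HFD mouse 1, against 35.7% of all genes. With all 9 mice in 1 fit, no member passed.

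In PRF 50 vs. ND, 0 of 34 members passed an adjusted p under 0.05 in limma, against 0.458% of the 10051 genes tested, and 13 had an unadjusted p under 0.05, against 12.5% of all genes. The p and fold rule was met by 7 members, Saa1, Saa2, Saa4, Lcn2, Lrg1, Fgl1 and Steap4, against 1.76% of all genes. The PRF 50 livers lay wholly above the ND livers for 9 members and wholly below for 0, against 8.19% and 11.8% of all genes. Il1rn is among these 9 and among the 13, with means of 0.873 FPKM in ND and 2.74 in PRF 50 livers. It reached the minimum only through the PRF 50 livers, so its direction here was partly fixed by the minimum. Without PRF 50 mouse 10 the adjusted count was 9, against 0.707% of all genes, the p and fold count was 20 (2.38% of all genes), and 25 members did not overlap (31.3% of all genes). The p and fold count was 3 without ND mouse 6, 2 without ND mouse 9, 1 without PRF 50 mouse 3 and 3 without PRF 50 mouse 9.

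Serum amyloid A proteins are small apolipoproteins that the liver releases in large amounts in inflammation, and Saa1 to Saa4 lie together on chromosome 7. The level of Saa1 was 6.98, 7.03 and 6.49 in ND, 8.43, 6.97 and 7.68 in HFD and 12.46, 11.52 and 6.73 in PRF 50 livers. PRF 50 mice 3 and 9 were above every other liver, mouse 10 was below all HFD livers and inside the ND range, and HFD mouse 1 was the highest of the ND and HFD livers. On the linear scale PRF 50 mouse 3 had 25.0 times the HFD mean, mouse 9 13.0 times and mouse 10 0.468 times. Its log2 fold change was 2.54 ± 1.35 in PRF 50 vs. HFD (SE, n = 3 per group, limma adjusted p = 0.350), and without mouse 10 it was 4.29 ± 0.46 (limma adjusted p = 0.0195).

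Saa2 showed the same livers high and low. Its level was 5.73, 5.18 and 5.33 in ND, 7.73, 6.03 and 6.63 in HFD and 11.51, 10.47 and 5.21 in PRF 50 livers. All HFD livers lay above all ND livers, with a log2 fold change of 1.38 ± 0.38 that missed the adjusted threshold (limma adjusted p = 0.154). In PRF 50 vs. HFD the log2 fold change of Saa2 was 2.27 ± 1.49 (limma adjusted p = 0.452), and without mouse 10 it was 4.19 ± 0.52 (limma adjusted p = 0.0283). Saa1 and Saa2 are close copies: 9.11% of the stretches of 50 bases in the longest Saa1 transcript also occur in Saa2, but none of 100 bases, so reads could be split between them. Saa4, the constitutive family member carried on high-density lipoprotein, had 7.25, 7.32 and 6.87 in ND, 7.63, 7.46 and 7.79 in HFD and 8.99, 8.66 and 7.44 in PRF 50 livers. PRF 50 mouse 10 lay just below the HFD livers and above the ND livers in Saa4, and the log2 fold change of PRF 50 vs. HFD was 0.74 ± 0.37 with it and 1.20 ± 0.16 without it (limma adjusted p = 0.320 and 0.0303). Saa3, which is made mostly outside hepatocytes, ranged from 2.41 to 5.03 in the ND and HFD livers and had 6.04, 4.51 and 2.76 in the PRF 50 livers, so that its groups overlapped.

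Orosomucoids are plasma glycoproteins that bind drugs and lipids, and Orm1, Orm2 and Orm3 are neighbours on chromosome 4. Orm1, the most abundant of them, was 10.53, 10.17 and 9.94 in ND, 9.51, 9.34 and 9.34 in HFD and 10.99, 10.12 and 9.73 in PRF 50 livers. It was the only member with all PRF 50 livers above all HFD livers and the only one with all HFD livers below all ND livers. The log2 fold change was -0.82 ± 0.18 in HFD vs. ND (limma adjusted p = 0.0914) and 0.88 ± 0.30 in PRF 50 vs. HFD (limma adjusted p = 0.156), and neither passed. Orm2 was far lower in ND (4.62, 4.79 and 3.16) and HFD livers (4.53, 4.13 and 4.82) and reached 9.91, 7.92 and 3.26 in PRF 50 livers. PRF 50 mouse 3 thus had 43.7 times and mouse 9 11 times the HFD mean of Orm2 in FPKM, while mouse 10 lay below all HFD livers. Its log2 fold change was 2.54 ± 1.46 with all mice and 4.42 ± 0.54 without mouse 10 (limma adjusted p = 0.391 and 0.0283). Orm1 and Orm2 share 20.4% of their 50-base stretches and 6.95% of their 100-base stretches, so part of the Orm1 level in a liver with much Orm2 is uncertain. Orm3 was 3.22, 1.42 and 1.71 (ND), 1.62, 1.72 and 3.08 (HFD), and 5.15, 2.97 and 1.85 (PRF 50) with overlapping groups.

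Lcn2 encodes lipocalin-2, which binds bacterial siderophores and so withholds iron. Its level was 1.78, 2.87 and 1.74 in ND, 4.92, 3.80 and 4.54 in HFD and 9.57, 7.39 and 2.17 in PRF 50 livers. All HFD livers were above all ND livers, PRF 50 mice 3 and 9 were above all HFD livers, and mouse 10 lay inside the ND range. The increase in HFD vs. ND was 2.29 ± 0.36 (log2, SE, limma adjusted p = 0.0309), while in PRF 50 vs. HFD the value was 1.96 ± 1.64 (limma adjusted p = 0.561) and without mouse 10 4.06 ± 0.64 (limma adjusted p = 0.0445). Il1rn, the secreted antagonist of the IL-1 receptor, was the other secreted member called in HFD vs. ND. It had 0.71, 0.97 and 1.02 in ND and 1.83, 1.63 and 2.10 in HFD livers, a difference of 0.95 ± 0.16 with no overlap (limma adjusted p = 0.0332). In PRF 50 livers Il1rn was 2.44, 1.78 and 1.24, which spans the HFD range, and all 3 values lay above the ND livers. Leaving out any 1 of the 6 mice ended the call of Il1rn (limma adjusted p 0.0601 to 0.132), and that of Lcn2 was lost without HFD mouse 1 (0.0611), HFD mouse 3 (0.115), ND mouse 6 (0.0892) or ND mouse 9 (0.0721). Il1rn was low, with a mean of 0.873 FPKM in ND and 2.64 in HFD. It reached the minimum only through the HFD livers, and with no minimum level it did not pass (limma adjusted p = 0.1004), so this call is among the least certain here.

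Haptoglobin (Hp) binds free hemoglobin and hemopexin (Hpx) binds free heme, and both were among the most abundant members. Hp was 10.88, 11.10 and 10.04 in ND, 11.59, 11.26 and 11.23 in HFD and 13.37, 12.29 and 10.61 in PRF 50 livers. In FPKM, PRF 50 mouse 3 had 10607 and mouse 9 5015, against a mean of 2644 in HFD, and mouse 10 had 1562. Hpx gave 11.35, 11.52 and 11.16 in ND, 11.68, 11.33 and 11.17 in HFD and 13.43, 12.29 and 11.42 in PRF 50 livers, with mouse 10 inside the range of both other groups. The log2 fold changes of PRF 50 vs. HFD were 0.73 ± 0.62 for Hp and 0.99 ± 0.46 for Hpx, and without mouse 10 1.47 ± 0.34 and 1.47 ± 0.36. Neither gene passed the adjusted test in limma in either case (adjusted p = 0.562 and 0.295 with mouse 10, 0.0844 and 0.101 without it).

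Lbp carries bacterial lipopolysaccharide to CD14, Lrg1 is a leucine-rich glycoprotein of plasma, and Fgl1 is a fibrinogen-like protein released by hepatocytes. Lbp was 4.80, 5.0 and 4.20 in ND, 4.68, 4.74 and 4.59 in HFD and 6.44, 5.95 and 4.48 in PRF 50 livers. Lrg1 was 7.55, 7.78 and 7.13 (ND), 7.62, 7.99 and 7.72 (HFD), and 9.24, 9.55 and 7.71 (PRF 50). Fgl1 was 7.66, 8.35 and 7.6 (ND), 8.14, 8.37 and 7.62 (HFD), and 10.05, 10.23 and 7.84 (PRF 50). In all 3 genes PRF 50 mice 3 and 9 lay above the 6 ND and HFD livers, and mouse 10 lay below the highest of the ND livers. For Lrg1 and Fgl1 mouse 9, not mouse 3, was the highest liver. The log2 fold change of PRF 50 vs. HFD was 0.96 ± 0.44 for Lbp, 1.06 ± 0.44 for Lrg1 and 1.33 ± 0.60 for Fgl1 (limma adjusted p = 0.285, 0.231 and 0.273). Without mouse 10 they were 1.53 ± 0.16, 1.62 ± 0.16 and 2.10 ± 0.23 (limma adjusted p = 0.0189, 0.0189 and 0.0200).

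**Figure D3:**
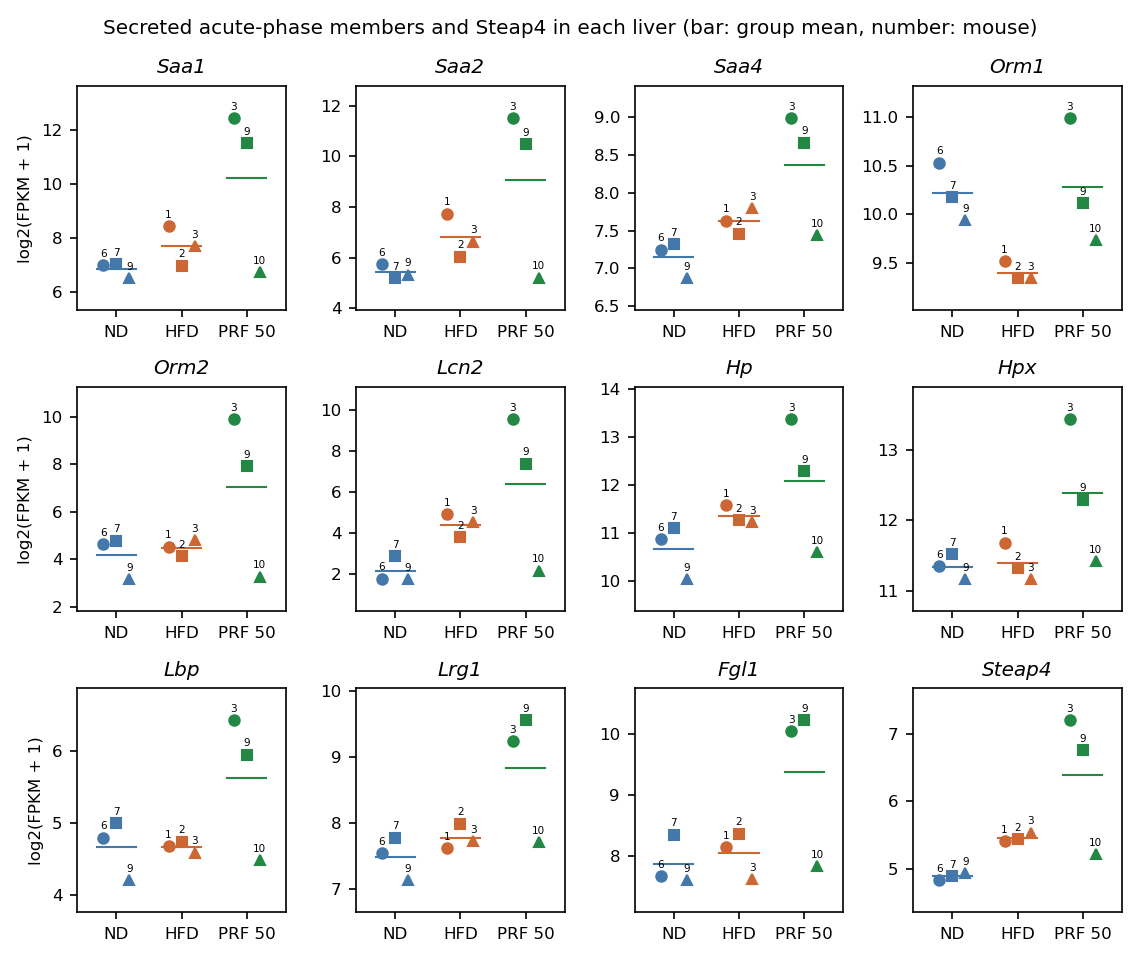
Level of 11 secreted members and Steap4 on the log2(FPKM + 1) scale (y axis) in ND, HFD and PRF 50 livers (x axis). Each point is 1 mouse with its number and the bar is the group mean; PRF 50 mice 3 and 9 lie at the top in most panels and mouse 10 near the ND and HFD livers.

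The inter-alpha-trypsin inhibitor heavy chains (Itih1 to Itih4) stabilize hyaluronan in plasma, and Itih1, Itih3 and Itih4 are neighbours on chromosome 14. Itih3 was 7.72, 7.81 and 7.42 in ND, 8.23, 7.47 and 7.44 in HFD and 9.11, 8.90 and 7.81 in PRF 50 livers, and its fold change of PRF 50 vs. HFD was 0.89 ± 0.36 (limma adjusted p = 0.227). Itih4 had 9.69, 9.80 and 8.40 in PRF 50 livers against 8.33 to 8.99 in the ND and HFD livers. Itih1 and Itih2 varied less: Itih1 lay between 6.92 and 7.48 in ND and HFD livers and had 7.76, 7.49 and 7.32 in PRF 50, and Itih2 lay between 7.85 and 8.48 over all 9 livers. PRF 50 mice 3 and 9 lay above all ND and HFD livers in Itih1, Itih3 and Itih4, and a difference between the chains was not tested.

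Crp and Apcs, the short pentraxins, are neighbours on chromosome 1. Crp, the main acute-phase protein of humans but a minor one in mice, was 7.98, 7.94 and 7.76 in ND, 8.26, 8.25 and 7.93 in HFD and 8.34, 8.34 and 8.25 in PRF 50 livers. All 3 PRF 50 livers, mouse 10 among them, lay above all ND livers in Crp, with a log2 fold change of 0.42 ± 0.12 (limma adjusted p = 0.202). Apcs, serum amyloid P, was 6.55, 6.84 and 6.94 (ND), 7.21, 6.96 and 7.21 (HFD), and 7.93, 8.93 and 6.33 (PRF 50), and PRF 50 mouse 10 was the lowest and mouse 9 the highest of the 9 livers. Cp, the copper-carrying ferroxidase ceruloplasmin, was 7.79, 8.04 and 7.91 (ND), 8.28, 8.38 and 8.14 (HFD), and 9.62, 8.67 and 8.38 (PRF 50). Its order was ND below HFD with no overlap, and the log2 fold change of PRF 50 vs. ND was 0.98 ± 0.29 (limma adjusted p = 0.226).

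Of the secreted members, 6 met the p and fold rule against ND. The log2 fold change of PRF 50 vs. ND was 4.25 ± 1.60 for Lcn2, 3.65 ± 1.41 for Saa2 and 3.40 ± 1.28 for Saa1 (limma adjusted p = 0.332, 0.346 and 0.333). It was 1.5 ± 0.59 for Fgl1, 1.35 ± 0.44 for Lrg1 and 1.22 ± 0.37 for Saa4 (limma adjusted p = 0.358, 0.275 and 0.226). None passed the adjusted test with mouse 10 in the group. Without it Lcn2 had 6.35, Saa2 5.58 and Saa1 5.15 (limma adjusted p = 0.00883, 0.00281 and 0.00281).

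Il6ra, the ligand-binding chain for IL-6, was 3.09, 2.97 and 3.30 in ND, 4.28, 3.27 and 3.92 in HFD and 3.63, 4.22 and 3.60 in PRF 50 livers. All PRF 50 livers lay above all ND livers, and the HFD range overlapped both. The log2 fold change was 0.70 ± 0.24 in HFD vs. ND, 0.70 ± 0.18 in PRF 50 vs. ND and -0.01 ± 0.27 in PRF 50 vs. HFD (limma adjusted p = 0.225, 0.171 and 0.992). Il6st, the gp130 chain that IL-6 shares with other cytokines, was 3.48, 4.10 and 4.64 (ND), 3.95, 4.24 and 4.39 (HFD), and 4.31, 4.61 and 4.52 (PRF 50), with ND mouse 6 the lowest and ND mouse 9 the highest liver. The fold change of Il6st in PRF 50 vs. HFD was 0.29 ± 0.14 (limma adjusted p = 0.297). Osmr, which pairs with gp130 for oncostatin M, was 0.45, 0.47 and 0.76 (ND), 0.12, 0.54 and 0.62 (HFD), and 0.57, 0.73 and 0.54 (PRF 50), too low to be tested.

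Il1r1, the signaling receptor for IL-1, was 2.82, 2.86 and 2.87 in ND, 3.46, 2.48 and 2.91 in HFD and 3.34, 3.47 and 2.97 in PRF 50 livers. The PRF 50 livers lay above the ND livers, and mouse 10 was below mice 3 and 9, as in the secreted members. HFD mouse 2 was the lowest of the 9 livers, and HFD mouse 1 was second only to PRF 50 mouse 9, so the HFD range took in nearly all others. Il1rap, its accessory chain and the most abundant receptor here, was 6.42, 6.37 and 6.32 (ND), 6.82, 6.30 and 6.29 (HFD), and 6.37, 6.30 and 6.67 (PRF 50). HFD mouse 1 was its highest liver. The log2 fold changes of PRF 50 vs. HFD were 0.31 ± 0.25 and -0.03 ± 0.17 (limma adjusted p = 0.541 and 0.954).

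Among the regulators, Stat3, Socs3 and Nfkbiz had higher values in PRF 50 mice 3 and 9 than in mouse 10 and all HFD livers. Stat3, the factor activated by IL-6, was 3.74, 4.33 and 4.12 in ND, 3.88, 4.29 and 4.03 in HFD and 4.74, 4.86 and 3.89 in PRF 50 livers, with mice 3 and 9 the highest of the 9. Socs3, the feedback inhibitor, was 1.90, 2.83 and 1.43 (ND), 1.51, 1.67 and 1.37 (HFD), and 2.88, 2.66 and 1.66 (PRF 50). PRF 50 mice 3 and 9 lay above all HFD livers, but ND mouse 7 lay between them, so the PRF 50 and ND groups overlapped. The log2 fold change of PRF 50 vs. HFD was 0.43 ± 0.25 for Stat3 and 0.88 ± 0.30 for Socs3 (limma adjusted p = 0.401 and 0.155), and without mouse 10 0.73 ± 0.14 and 1.25 ± 0.13 (limma adjusted p = 0.0602 and 0.0195). RNA levels do not measure the phosphorylated, active form of STAT3.

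Cebpb and Cebpd encode C/EBP factors that act at acute-phase promoters. Cebpb was 6.87, 6.28 and 6.05 in ND, 6.68, 5.68 and 5.87 in HFD and 6.61, 6.70 and 6.29 in PRF 50 livers, with ND mouse 6 the highest. Cebpd was 2.46, 1.74 and 2.32 (ND), 2.45, 1.29 and 1.69 (HFD), and 2.62, 2.26 and 2.39 (PRF 50). In both genes HFD mouse 2 was the lowest liver and the groups overlapped. PRF 50 vs. HFD gave a log2 fold change of 0.46 ± 0.26 for Cebpb and of 0.61 ± 0.28 for Cebpd (limma adjusted p = 0.371 and 0.277).

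Nfkbia, the inhibitor that holds NF-kB in the cytoplasm, was 5.27, 4.69 and 4.68 in ND, 4.72, 4.11 and 4.45 in HFD and 5.35, 4.45 and 4.69 in PRF 50 livers. Nfkbiz, a nuclear cofactor of NF-kB, was 1.04, 1.42 and 0.85 (ND), 1.36, 1.22 and 1.08 (HFD), and 3.44, 1.76 and 1.01 (PRF 50). Mouse 3 was the highest liver for both, and mouse 9 exceeded the ND and HFD livers in Nfkbiz but not in Nfkbia. The log2 fold changes of PRF 50 vs. HFD were 0.41 ± 0.25 and 0.85 ± 0.54 (limma adjusted p = 0.420 and 0.437).

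**Figure D4:**
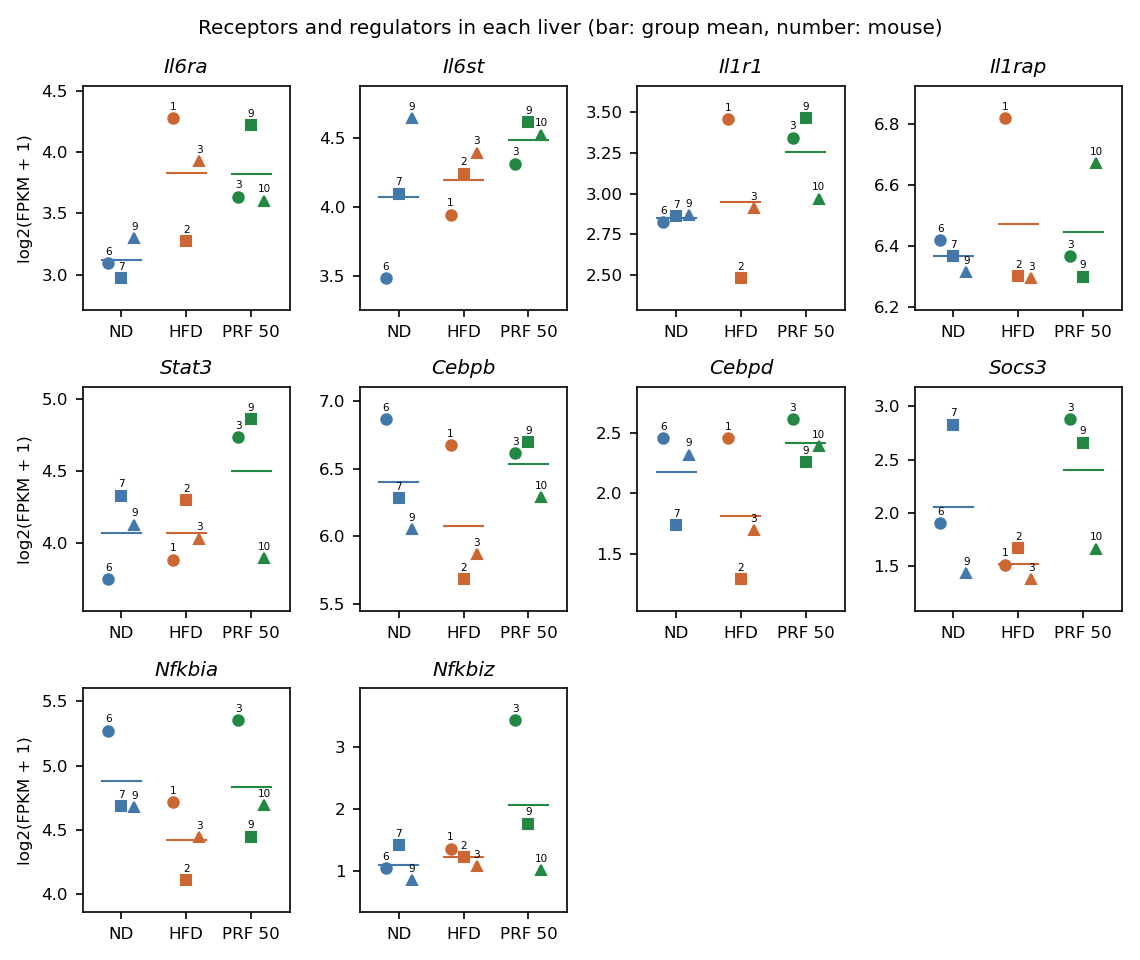
Level of the 4 tested receptors and 6 regulators on the log2(FPKM + 1) scale (y axis) in ND, HFD and PRF 50 livers (x axis). Each point is 1 mouse with its number and the bar is the group mean; most panels overlap between groups, and Stat3, Socs3 and Nfkbiz are high in PRF 50 mouse 3.

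In metal handling, Steap4 and Mt2 were higher in PRF 50 mice 3 and 9 than in all ND and HFD livers, and Mt1 in mouse 9 only. Steap4, a metalloreductase that reduces iron and copper, was 4.83, 4.89 and 4.94 in ND, 5.41, 5.44 and 5.54 in HFD and 7.20, 6.76 and 5.22 in PRF 50 livers. The HFD livers were all above the ND livers, with a narrow spread in each, and the increase was 0.57 ± 0.09 (log2, SE, limma adjusted p = 0.0330). Leaving out any 1 of the 6 mice ended this call (limma adjusted p 0.0576 to 0.165). The fold change of PRF 50 vs. HFD was 0.93 ± 0.45 (limma adjusted p = 0.308), and without mouse 10 it was 1.51 ± 0.15 (limma adjusted p = 0.0189). Mt1 and Mt2, which bind zinc and copper and lie next to each other on chromosome 8, varied widely within every group. Mt1 was 9.74, 9.22 and 8.26 in ND, 9.22, 8.80 and 8.19 in HFD and 8.90, 10.41 and 7.34 in PRF 50 livers. Mt2 was 7.81, 8.21 and 6.66 in ND, 8.33, 7.85 and 7.08 in HFD and 8.43, 9.40 and 6.61 in PRF 50 livers. In both genes PRF 50 mouse 9 was the highest and mouse 10 the lowest of the 9 livers. PRF 50 mouse 3 lay just above the highest HFD liver for Mt2 and inside the range of the ND and HFD livers for Mt1.

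Several cytokines of the pathway had low values in these livers, which is not read as absence. Il6 lay between 0.00 and 0.25, Il11 between 0.00 and 0.04, Lif between 0.00 and 0.06 and Osm between 0.00 and 0.13, all below the minimum. Cntf, ciliary neurotrophic factor, reached 0.87 and Clcf1, a cytokine of the same family, 0.69, also below it. Il1b, the IL-1 that acts beside IL-6, was 0.76, 0.97 and 1.18 in ND, 0.29, 0.71 and 1.20 in HFD and 2.82, 1.11 and 1.38 in PRF 50 livers, with mouse 3 the highest. Of the 12 gp130 cytokines and other receptors, 3 were tested. Ctf1, cardiotrophin-1, was 2.07, 1.82 and 2.22 in ND, 2.54, 2.55 and 2.27 in HFD and 1.63, 1.90 and 1.94 in PRF 50 livers and fell in PRF 50 vs. HFD (-0.63 ± 0.13, limma adjusted p = 0.0462). Lifr, the receptor of leukemia inhibitory factor and the most abundant of the list, was 5.87, 5.70 and 5.53 (ND), 5.16, 4.69 and 4.78 (HFD), and 5.66, 5.46 and 6.25 (PRF 50). All HFD livers lay below both other groups. Lifr fell in HFD vs. ND (-0.83 ± 0.15, limma adjusted p = 0.0483), and its PRF 50 vs. HFD value was 0.91 ± 0.22 (limma adjusted p = 0.0702). The call of Ctf1 was lost without any 1 of the 6 mice (limma adjusted p 0.0719 to 0.152), and that of Lifr in HFD vs. ND without HFD mouse 2 (0.174), HFD mouse 3 (0.2) or any ND mouse (0.0614 to 0.163). Il11ra1, the IL-11 receptor chain, lay between 3.28 and 3.91 in all livers.

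Of the 22 JAK-STAT genes, 20 were tested, and 0 passed an adjusted p under 0.05 in limma for PRF 50 vs. HFD, with 4 higher and 1 lower at an unadjusted p under 0.05 (8.47% and 11.8% of all genes). The smallest p values were those of Stat6, Stat2 and Jak1, with log2 fold changes of 0.41 ± 0.10, 0.35 ± 0.10 and 0.24 ± 0.09 (limma adjusted p = 0.0727, 0.113 and 0.188). In HFD vs. ND 2 genes fell (1.33% of all genes passed in either direction), both feedback inhibitors that respond to STAT5. Cish was 4.23, 3.79 and 3.67 in ND, 2.34, 2.32 and 1.14 in HFD and 1.85, 1.41 and 3.33 in PRF 50 livers, a change of -1.96 ± 0.32 (limma adjusted p = 0.0318). Socs2 was 3.45, 3.16 and 3.78 (ND), 1.98, 2.56 and 2.34 (HFD), and 2.62, 2.66 and 3.59 (PRF 50), a change of -1.17 ± 0.19 (limma adjusted p = 0.0331). PRF 50 mouse 10 was the highest of its group in both, close to the ND livers. Socs2 lost its call without any 1 of the 6 mice (limma adjusted p 0.0579 to 0.116), and Cish without HFD mouse 2 (0.0588) or any ND mouse (0.0601 to 0.108). Junb, the most abundant of the list, lay between 3.60 and 5.25.

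Of the 34 genes of IL-1, TNF and NF-kB signaling, 25 were tested in PRF 50 vs. HFD, and 0 passed an adjusted p under 0.05 in limma, with 2 higher and 2 lower at an unadjusted p under 0.05 (8.47% and 11.8% of all genes). Cd14, the lipopolysaccharide coreceptor, was 0.57, 1.13 and 0.86 in ND, 0.93, 0.98 and 1.21 in HFD and 2.51, 1.48 and 1.82 in PRF 50 livers, with all 3 PRF 50 livers highest (0.90 ± 0.25, limma adjusted p = 0.102). The values of Irak1 and Tnfrsf1a were -0.25 ± 0.07 and 0.44 ± 0.15 (limma adjusted p = 0.115 and 0.149). Chuk, the most abundant of the list, lay between 5.32 and 5.75. The median log2 fold change of the list was 0.07, against -0.02 over all genes.

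Of the 26 other positive acute-phase genes, 23 were tested in PRF 50 vs. HFD; 18 were higher (47.0% of all genes tested), and 3 rose by the adjusted test, which 3.59% of all genes passed in either direction. At an unadjusted p under 0.05, 7 were higher (8.47% of all genes) and 1, Serpina3m, was lower (11.8%), with all PRF 50 below all HFD livers (-0.46 ± 0.15, limma adjusted p = 0.155). Serpina1e, an alpha-1-antitrypsin gene, was 11.75, 12.05 and 11.38 in ND, 9.08, 7.49 and 6.89 in HFD and 11.78, 11.64 and 12.62 in PRF 50 livers. Its change was -3.91 ± 0.50 in HFD vs. ND and 4.20 ± 0.54 in PRF 50 vs. HFD (limma adjusted p = 0.0140 and 0.0170), and mouse 10 was the highest liver, the reverse of its place among the secreted members. Complement C9 was 7.58, 8.16 and 8.02 (ND), 7.57, 7.64 and 7.85 (HFD), and 8.99, 8.51 and 8.54 (PRF 50), and Il18bp, the IL-18 binding protein, 2.71, 2.75 and 2.97 (ND), 2.65, 2.62 and 2.94 (HFD), and 3.69, 3.23 and 3.46 (PRF 50). Both had all PRF 50 livers on top and rose by 0.99 ± 0.16 and 0.72 ± 0.14 (limma adjusted p = 0.0272 and 0.0434). Serpina1e, C9 and Hamp2, which encodes a hepcidin, stand in the study's own list, so these are not independent evidence. Hamp2 was 8.69, 6.4 and 7.65 in ND, 9.22, 8.14 and 9.07 in HFD and 11.52, 6.38 and 6.77 in PRF 50 livers, with mouse 3 above and mice 9 and 10 below all HFD livers. Serpina3m and Serpina3n, which encode protease inhibitors of the antichymotrypsin family, rose in HFD vs. ND by 1.14 ± 0.14 and 0.77 ± 0.13 (limma adjusted p = 0.0140 and 0.0376). Each of these calls was lost without at least 1 library, such as HFD mouse 2: the limma adjusted p was then 0.0677 for Serpina1e, 0.0947 for C9 and 0.143 for Il18bp in PRF 50 vs. HFD. Without HFD mouse 2 it was 0.0539 for Serpina1e, 0.0590 for Serpina3m and 0.154 for Serpina3n in HFD vs. ND. In Fga, Fgb, Fgg, C3, C4b, Serpina3n and Slc39a14, PRF 50 mice 3 and 9 lay above all ND and HFD livers. Mouse 10 was the lowest PRF 50 liver in each of them, as in the secreted members. The PRF 50 values were 10.78, 11.35 and 10.33 for Fga and 10.67, 10.33 and 9.71 for C3. The other genes of the list did not have this order. Serpina3k, the most abundant of the list, lay between 11.66 and 13.05. Members of the Serpina1 and Serpina3 clusters are close copies, so their levels are uncertain.

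The negative acute-phase genes, whose products fall in inflammation, had 7 higher and 7 lower of 14 tested in PRF 50 vs. HFD, and 0 passed the adjusted test in limma, with 0 higher and 3 lower at an unadjusted p under 0.05 (8.47% and 11.8% of all genes). These 3 were Ttr, Serpina6 and Apoa2. Ttr, transthyretin, was 12.84, 12.37 and 12.08 in ND, 12.74, 12.62 and 12.53 in HFD and 12.10, 11.97 and 11.98 in PRF 50 livers, with mouse 10 level with mice 3 and 9. Log2 fold changes were -0.62 ± 0.16 for Ttr, -0.80 ± 0.25 for Serpina6, the corticosteroid carrier, and -0.56 ± 0.21 for Apoa2, the most abundant of the list (limma adjusted p = 0.0865, 0.136 and 0.183). Serpina7, the thyroxine carrier, rose in HFD vs. ND by 0.96 ± 0.16 (limma adjusted p = 0.0330) and was 6.11, 6.36 and 4.27 in PRF 50 livers, with mouse 10 the lowest of all 9 livers. This call was lost without ND mouse 7 (limma adjusted p = 0.131) and without 4 other mice.

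Hepatocyte transcription factors, 10 genes, had 6 higher and 4 lower in PRF 50 vs. HFD, and 0 passed an adjusted p under 0.05 in limma, with 1 higher at an unadjusted p under 0.05 (8.47% of all genes). That gene was Foxa3, a forkhead factor, with 5.04, 4.16 and 4.82 in ND, 4.27, 3.83 and 3.67 in HFD and 4.62, 4.39 and 4.62 in PRF 50 livers (0.62 ± 0.16, limma adjusted p = 0.0863). All PRF 50 livers lay above the HFD livers, and without HFD mouse 1 it passed (limma adjusted p = 0.0291). Cebpa, the most abundant factor of the list, was 7.96, 7.80 and 7.62 (ND), 7.39, 7.24 and 7.10 (HFD), and 7.46, 7.38 and 7.49 (PRF 50), and the PRF 50 and HFD livers overlapped.

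Glucocorticoids act beside IL-6 on acute-phase genes, and their 10 response genes were split, with 5 higher and 5 lower in PRF 50 vs. HFD. None passed an adjusted p under 0.05 in limma, with 1 higher and 3 lower at an unadjusted p under 0.05 (8.47% and 11.8% of all genes). Zbtb16, a zinc finger factor induced by glucocorticoids, was 1.68, 1.09 and 2.39 in ND, 2.84, 1.54 and 1.83 in HFD and 0.83, 0.55 and 0.47 in PRF 50 livers (-1.45 ± 0.32, limma adjusted p = 0.0549). All PRF 50 livers lay below all others. All 3 were under 1 FPKM, so Zbtb16 reached the minimum only through the HFD livers. Dusp1, a phosphatase of MAP kinases, was 4.62, 4.17 and 3.21 (ND), 3.16, 3.01 and 3.72 (HFD), and 2.83, 2.40 and 2.26 (PRF 50), and Sgk1, a kinase, 2.44, 2.22 and 2.67 (ND), 2.15, 1.75 and 2.19 (HFD), and 2.46, 2.45 and 2.73 (PRF 50). Hsd11b1, which regenerates active glucocorticoid and was the most abundant of the list, was 9.22, 9.02 and 8.80 (ND), 9.58, 9.28 and 9.17 (HFD), and 8.85, 8.38 and 8.99 (PRF 50).

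Of the 10 metal response genes, 9 were tested in PRF 50 vs. HFD; 6 were higher, and 0 passed an adjusted p under 0.05 in limma, with 1 higher and 2 lower at an unadjusted p under 0.05 (8.47% and 11.8% of all genes). Fth1, the ferritin heavy chain that stores iron, was 11.17, 10.86 and 10.53 in ND, 11, 10.96 and 10.97 in HFD and 10.54, 10.48 and 10.42 in PRF 50 livers (-0.50 ± 0.12, limma adjusted p = 0.0746). Its light chain Ftl1, the most abundant of the list, was 12.46, 12.21 and 11.78 (ND), 12.10, 12.04 and 12.11 (HFD), and 11.74, 11.60 and 11.64 (PRF 50). Slc40a1, the iron exporter, was 5.52, 5.82 and 5.87 (ND), 5.19, 5.37 and 5.24 (HFD), and 6.17, 5.36 and 6.16 (PRF 50). In both ferritins all PRF 50 livers lay below all HFD livers, and 1 gene of this list, Hmox1, stands in the study's own list.

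Markers of resident macrophages were high in all 3 PRF 50 livers, mouse 10 among them. All 10 Kupffer cell markers were higher in PRF 50 than in HFD with no overlap, and 9 of 10 passed an adjusted p under 0.05 in limma; of all genes tested, 10.9% were higher with no overlap and 3.59% passed. All 10 were also higher in PRF 50 than in ND with no overlap (8.19% of all genes), but 0 of 10 passed (0.458% of all genes; limma adjusted p = 0.0602 for Timd4 and 0.216 for Marco). In all, 8 of the 10 stand in the study's own list. Their summed level was 92.4, 173 and 217 FPKM in ND, 111, 177 and 177 in HFD, and 610, 370 and 391 in PRF 50 livers, and Cd5l was the most abundant. Timd4 was 1.37, 1.73 and 2.0 in ND, 1.03, 1.64 and 1.43 in HFD and 3.13, 2.71 and 2.72 in PRF 50 livers (1.49 ± 0.19, limma adjusted p = 0.0150). Vsig4 and C1qb differed by 1.27 ± 0.17 and 1.45 ± 0.22 (limma adjusted p = 0.0182 and 0.0237). Adgre1, C1qc and Csf1r also passed, and Marco was the marker that did not (limma adjusted p = 0.135). The calls of Timd4, Vsig4 and C1qb were lost without HFD mouse 3 (limma adjusted p = 0.0560, 0.0529 and 0.0711), a fit with fewer mice. No Kupffer cell marker was listed at 0 in any liver. In bulk liver, more cells of a type and more RNA per cell cannot be told apart, and the part of these markers in the values of the members was not tested.

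Of the neutrophil markers, S100a8 and S100a9 were highest in PRF 50 mice 3 and 9. Of 11 genes, 10 were in the tables (Ly6g was not among the symbols) and 2 were tested. S100a8, the most abundant, was 1.19, 2.09 and 1.65 in ND, 1.75, 1.39 and 2.05 in HFD and 4.98, 3.38 and 1.30 in PRF 50 livers, and S100a9 was 1.17, 2.74 and 2.23 (ND), 1.40, 1.11 and 1.23 (HFD), and 4.56, 3.05 and 1.43 (PRF 50). In S100a9 mouse 10 also lay just above the highest HFD liver, and S100a9 met the p and fold rule with all mice. The fold changes of PRF 50 vs. HFD were 1.49 ± 0.80 and 1.77 ± 0.67 (limma adjusted p = 0.356 and 0.2), and S100a9 passed without mouse 10 (limma adjusted p = 0.0446). The summed level of the 10 genes was 3.28, 9.62 and 6.67 FPKM in ND, 4.65, 4.37 and 5.21 in HFD, and 58.3, 20.0 and 3.82 in PRF 50 livers. Of these genes 0, 1 and 5 were listed at 0 in PRF 50 mice 3, 9 and 10. Among the genes below the minimum, Retnlg, Ngp, Ltf and Csf3r were higher in PRF 50 mice 3 and 9 than in all ND and HFD livers. Retnlg was 0.88, 0.87 and 0.00 and Ngp 0.97, 0.80 and 0.00 in the PRF 50 livers. Camp, Cxcr2, Elane and Mpo did not have this order. Mpo, a gene of neutrophil granules, was at 0 in 7 of the 9 livers, which is not read as absence of these cells. The part of these cells in the values of the members was not tested.

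**Figure D5:**
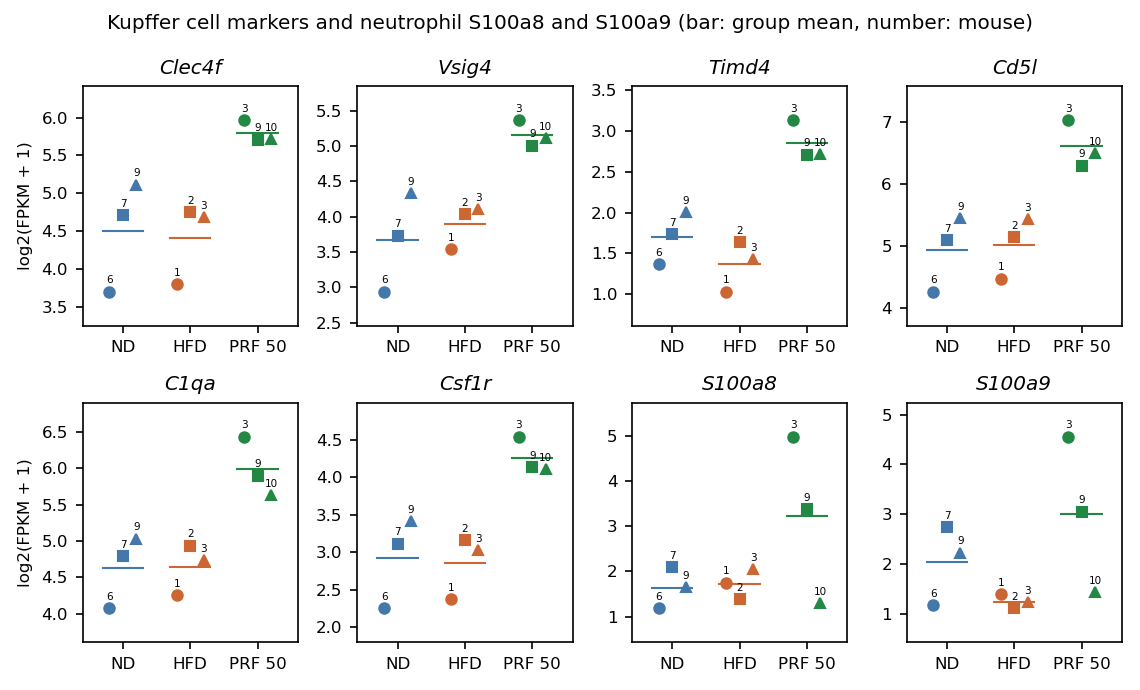
Level of 6 Kupffer cell markers and the neutrophil genes S100a8 and S100a9 on the log2(FPKM + 1) scale (y axis) in ND, HFD and PRF 50 livers (x axis). Each point is 1 mouse with its number and the bar is the group mean; all 3 PRF 50 livers are high in the Kupffer cell markers, and PRF 50 mice 3 and 9 but not mouse 10 are high in S100a8 and S100a9.

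Of the 9 monocyte and recruited macrophage genes, 5 were tested in PRF 50 vs. HFD and all 5 were higher (47.0% of all genes tested). Of these, Ly6c2 reached the minimum only through the PRF 50 livers, so its direction was partly fixed by the minimum. Spi1, the myeloid factor PU.1, was 1.91, 1.70 and 2.17 in ND, 1.81, 1.89 and 2.22 in HFD and 3.35, 2.80 and 3.04 in PRF 50 livers and rose by 1.09 ± 0.17 vs. HFD and 1.14 ± 0.18 vs. ND (limma adjusted p = 0.0251 and 0.0491). Its calls were lost without HFD mouse 2 (limma adjusted p = 0.0881) and without ND mouse 7 (limma adjusted p = 0.177), among others. Cd9, a tetraspanin of the same list, fell in HFD vs. ND (-0.99 ± 0.16, limma adjusted p = 0.0309), and without ND mouse 7 it did not pass (limma adjusted p = 0.107). Ly6c2 was 1.21, 1.07 and 0.33 in ND, 1.09, 0.45 and 0.91 in HFD and 2.13, 1.25 and 1.54 in PRF 50 livers, and Lgals3, galectin-3, was 1.73, 2.09 and 2.16 (ND), 2.09, 2.09 and 2.43 (HFD), and 3.28, 2.59 and 2.75 (PRF 50). Spp1, osteopontin, had the highest mean of the list.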

How the data were processed

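Liver RNA of 9 mice was sequenced as poly(A)-selected, stranded, paired-end libraries (NEBNext Ultra II Directional, Illumina NovaSeq). The authors trimmed reads (FASTX_Trimmer, BBMap), aligned them with TopHat (versions not stated) to mm10 per the submitters' notes, estimated FPKM with Cufflinks, and normalized geometrically, which they state was done with EdgeR. The deposited values are log2(FPKM + 1), read from 1 table per liver. From them, limma 3.58.1 (R 4.3.3; lmFit, eBayes with a trend) was fitted here to the 6 mice of each comparison, on genes averaging 1 FPKM or more in those mice, with Benjamini-Hochberg adjustment over all genes tested. Calls used an adjusted p under 0.05, and separately an unadjusted limma p under 0.05 with a fold above 2. The thresholds are the study's, but the fold here is of mean log2 values, whereas the values in the study's table fit a ratio of mean FPKM + 1. The script was tested on simulated data. Promoter matching and figures used Python 3.11.15 and matplotlib 3.10.9.

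The relative depth, 0.962 to 1.59, was estimated from the steps between low FPKM values, and with 3 mice per group only large or very even differences pass. The members and lists were chosen with earlier results of these data known. Members past either rule in any comparison, and all receptors and regulators, were given in every liver. Of each other list, the 3 genes with the smallest p in PRF 50 vs. HFD, those past the adjusted rule in any comparison (up to 6) and the most abundant were named; 1 gene that this rule picks is not reported here. Orm1, Orm2, Hp, Hpx, Lbp, Itih3, Crp, Apcs, Cp, Mt1 and Mt2 were added after their values were seen. So were the cytokines Il6, Il11, Lif, Osm, Cntf, Clcf1 and Il1b, and Mpo, Hamp2 and Hmox1. Fga, Fgg, C3, C4b, Slc39a14 and the other neutrophil genes below the minimum were also added then. Alternatives were 1 fit of all 9 mice, each mouse left out, a pseudocount of 0.1, no minimum or 10 FPKM, median-of-ratios scaling, quantile normalization, no trend, and members outside the study's list.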

Additional observations from a re-analysis of the deposited data

How the results depend on the processing

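Of 75 gene results, 28 kept their direction and their side of the threshold in all alternatives, 20 lost their call in at least 1, 25 gained a call in at least 1 and 2 reversed; counted as single values, 799 were the same, 119 weaker, 30 stronger and 9 reversed. All 9 medians moved by less than the spread between mice, but this spread was pooled over all 3 groups, also for HFD vs. ND. For the secreted members it was wide, with list means of 9.07, 8.39 and 6.54 in PRF 50 mice 3, 9 and 10. A move below it is therefore no sign of stability. The median of the receptors in PRF 50 vs. HFD changed sign with a minimum of 10 FPKM and without HFD mouse 2. That of the secreted members in PRF 50 vs. HFD rose from 0.88 to 1.47 without PRF 50 mouse 10. For PRF 50 vs. HFD, the adjusted count of 0 ranged from 0 to 11 with 1 mouse left out. The p and fold count of 1 was 2 with all 9 mice in 1 fit, 2 with a pseudocount of 0.1, 0 with no minimum level, 3 after quantile normalization, 0 among members outside the study's list, and 0 to 18 with 1 mouse left out. The count of 1 without overlap was 2 after median-of-ratios scaling, 3 after quantile normalization, and 1 to 22 with 1 mouse left out; the 22 came without PRF 50 mouse 10, where 37.5% of all genes did not overlap, against 26.2% with all mice. With the fold as a ratio of mean FPKM + 1, also chosen after seeing the data, the p and fold counts were 1 for PRF 50 vs. HFD, 2 for HFD vs. ND and 9 for PRF 50 vs. ND. For HFD vs. ND, the adjusted count of 3 was 0 with all 9 mice in 1 fit, 0 with no minimum level, 2 with a minimum of 10 FPKM, 4 after quantile normalization, and 0 to 1 with 1 mouse left out. The p and fold count of 2 was 0 with all 9 mice in 1 fit, 3 with a pseudocount of 0.1, 1 among members without a close copy (an alternative chosen after seeing the data), and 1 to 4 with 1 mouse left out. The count of 9 without overlap was 8 with a minimum of 10 FPKM, 10 after quantile normalization, and 9 to 15 with 1 mouse left out. For PRF 50 vs. ND, leaving out 1 mouse gave 0 to 9 for the adjusted count of 0, 1 to 20 for the p and fold count of 7 (5 to 11 in the other fits) and 9 to 25 for the count of 9 without overlap (7 with a minimum of 10 FPKM, 11 after quantile normalization). In PRF 50 vs. HFD the log2 fold change of Il6ra reversed from -0.01 to 0.0408 after quantile normalization, and to 0.22 without HFD mouse 1, 0.0430 without HFD mouse 3, 0.0846 without PRF 50 mouse 3 and 0.10 without PRF 50 mouse 10; its range with 1 mouse left out was -0.28 to 0.22. That of Il1rap reversed from -0.03 to 0.10 after quantile normalization, and to 0.15 without HFD mouse 1, 0.01 without PRF 50 mouse 3 and 0.05 without PRF 50 mouse 9, with a range of -0.14 to 0.15. Fits without 1 mouse have fewer samples, all genes above 0 enter where there is no minimum, and otherwise the cause was not tested. No paired analysis was possible because the groups hold different animals and the mouse numbers pair none between groups. Depth limits the genes near 1 FPKM, such as Il1rn and the neutrophil markers, and FPKM without read counts gives no counting error. Values of Saa1, Saa2, Orm1, Orm2 and Orm3 depend on how reads were shared between copies.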

Other observations

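The markers of other liver cells were looked at in the same way. Sinusoidal endothelium had 6 of 8 genes higher in PRF 50 vs. HFD, and none passed an adjusted p under 0.05 in limma, with 0 at an unadjusted p under 0.05. Clec4g, a lectin of these cells and their most abundant marker, was 4.86, 5.31 and 5.46 in ND, 3.14, 4.6 and 5.23 in HFD and 4.86, 4.74 and 5.46 in PRF 50 livers. Kdr, a VEGF receptor, was 1.85, 2.45 and 2.85 (ND), 0.96, 1.75 and 1.94 (HFD), and 1.65, 1.99 and 2.79 (PRF 50), and Bmp2 was 2.32, 2.24 and 2.86 (ND), 1.18, 1.86 and 2.01 (HFD), and 2.03, 1.85 and 2.87 (PRF 50). Among stellate cell and fibroblast markers, 5 of 8 were higher and none passed in limma, with 0 higher and 2 lower at an unadjusted p under 0.05 (8.47% and 11.8% of all genes). Col1a1, a fibrillar collagen chain, was 0.65, 0.62 and 0.68 (ND), 1.15, 1.73 and 1.39 (HFD), and 0.91, 0.99 and 0.99 (PRF 50), Col3a1 was 1.54, 1.70 and 2.24 (ND), 2.53, 2.97 and 2.59 (HFD), and 2.17, 2.15 and 2.51 (PRF 50), and Rgs5, a pericyte gene, was 1.95, 2.79 and 3.56 (ND), 1.92, 2.83 and 3.28 (HFD), and 2.56, 3.61 and 3.76 (PRF 50). In all 3 PRF 50 livers Col1a1 was under 1 FPKM, so it reached the minimum only through the HFD livers. Dcn, decorin, was the most abundant of the stellate cell and fibroblast list.

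Lymphocyte and cholangiocyte markers had 0 genes above the minimum in PRF 50 vs. HFD, and Nkg7 and Sox9 had the highest means of these lists. Of the adipocyte markers, only Cfd, adipsin, was tested, with 0.73, 1.01 and 1.37 in ND, 0.66, 2.86 and 3.85 in HFD and 0.28, 0.69 and 0.00 in PRF 50 livers. The erythroid genes Hba-a1, Hba-a2 and Hbb-bs, which encode hemoglobin chains, had the smallest p values of their list, and none passed the adjusted test in limma, with 0 at an unadjusted p under 0.05. Hba-a1, the most abundant of them, was 7.21, 6.19 and 5.17 (ND), 5.21, 6.27 and 7.21 (HFD), and 6.77, 7.09 and 6.78 (PRF 50). Of the hepatocyte markers, Ass1, a urea cycle enzyme, was 10.81, 9.87 and 9.47 (ND), 9.40, 8.84 and 8.86 (HFD), and 9.45, 9.46 and 9.36 (PRF 50), and Fgb, the fibrinogen beta chain, was 11.47, 11.64 and 11.66 (ND), 11.49, 11.47 and 10.98 (HFD), and 12.02, 12.41 and 11.67 (PRF 50).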
